A study of Mus musculus with 4 samples.

Results

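The peaks described here are those that the authors named after a UCSC transcript, an entry of the UCSC gene set that had no RefSeq name in their lists. They were chosen by the name of each peak, taking names that begin with uc and leaving out the mitochondrial chromosome. This gave 469 peaks in 143 transcript units, 243 for SRSF1 and 226 for SRSF2, of 107319 peaks in both lists together (0.437%). Another 107 peaks in 6 UCSC units of the mitochondrial chromosome were left out. The comparison set was the 2149 units that carry a RefSeq mRNA accession (NM), with 17193 peaks.

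Mouse embryonic fibroblasts (MEFs) were the source of all 4 CLIP-seq samples, of which the peak lists of 2 are used. CLIP-seq fixes a protein to the RNA it touches with ultraviolet light, pulls the protein down and sequences the attached fragments. One sample is SRSF1 from SRSF1 tet-repressible MEFs and the other SRSF2 from SRSF2 tet-repressible MEFs, both grown without tetracycline, with no siRNA in their labels, and both precipitated with an anti-HA antibody. The remaining SRSF1 samples, 1 with control siRNA and 1 with SRSF2 knocked down, were not analysed here. The study asked how SR proteins cooperate and compete in regulated splicing. In both lines the protein measured is the HA-tagged one, and each protein was measured in its own line, so protein and cell line cannot be told apart. With 1 library per protein there are no replicates, no test between the proteins was run, and every value describes these 2 libraries. As a check of the cell label, 2 of 14 fibroblast markers, Col1a1 and Postn, had a RefSeq-named unit, with 68 SRSF1 and 54 SRSF2 peaks together. Of 5 epithelial markers Krt19 alone had one, with 1 SRSF1 peak, and none of 4 haematopoietic, 3 endothelial and 3 neuronal markers did. Most genes lie in numbered clusters without a gene name, so a missing marker shows nothing about its RNA.

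SRSF1 and SRSF2 belong to the SR proteins, which hold RNA through RNA recognition motifs and recruit the splicing machinery through a domain rich in arginine and serine. They bind exonic enhancer sequences in precursor mRNA, and their binding is also found in introns and in noncoding transcripts. The UCSC gene set was built from cDNA and protein alignments and is wider than RefSeq. Entries without a RefSeq name are often noncoding RNAs, partial or intron-derived cDNAs, or transcripts of unknown function. The files do not pair the UCSC identifiers with gene names, and no table used here does. Units are therefore given by identifier and by the position of their first and last peak on mm9, counted from 1. Because no mm9 sequence or annotation was used here, no exon, intron or motif was assigned and no sequence is printed.

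UCSC-only units carried few peaks. Of the 143 units, 72 (50.3%, 95% exact binomial interval 41.9 to 58.8) had a single peak in both lists together, against 476 of 2149 RefSeq-named units (22.1%, 20.4 to 24). The median was 1 peak per unit with quartiles of 1 and 3, and 4 peaks with quartiles of 2 and 9 in RefSeq-named units. Mean numbers were 3.28 and 8.0. At least 10 peaks were found in 7 UCSC-only units (4.90%, 1.99 to 9.83) and in 530 RefSeq-named units (24.7%, 22.9 to 26.5). These intervals cover counting error only, since units are not replicates of a condition. One unit, uc008toj.1, held 76 peaks, 16.2% of all UCSC-only peaks, and without it the mean was 2.77. Transcript length and RNA level were not given in the files, so fewer peaks per unit, shorter transcripts and less RNA cannot be told apart.

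**Figure D1:**
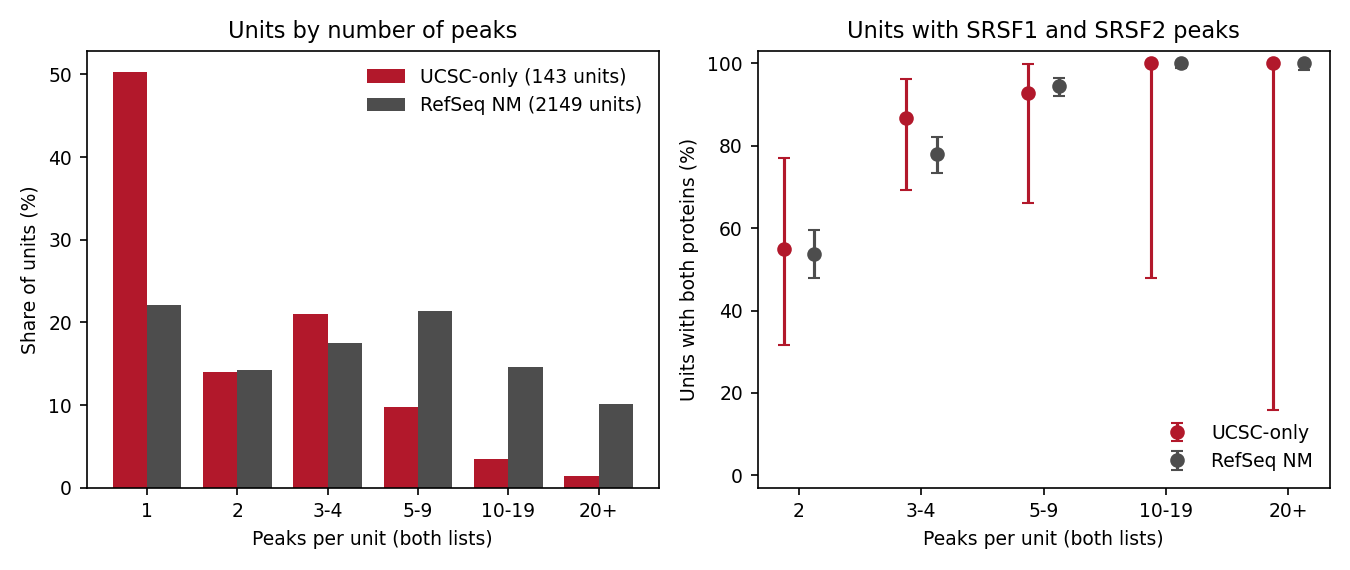
Left, share of units (%) by number of peaks in both lists together, for 143 UCSC-only and 2149 RefSeq NM units; right, share of units (%) with peaks of both proteins in each class of 2 or more peaks, with exact 95% binomial intervals. Single-peak units made up 50.3% of UCSC-only and 22.1% of RefSeq NM units, while the intervals for both proteins overlap in every class shown.

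Both proteins were found in 57 UCSC-only units (39.9%, 31.8 to 48.4), SRSF1 alone in 41 and SRSF2 alone in 45. In RefSeq-named units the share with both was 66.2% (64.2 to 68.2). A unit with 1 peak cannot show both proteins, so the share was also read within classes of equal peak number. With exactly 2 peaks, 11 of 20 UCSC-only units had both proteins (55.0%, 31.5 to 76.9), against 53.7% of RefSeq-named units. With 3 to 4 peaks, the shares were 86.7% (69.3 to 96.2) and 77.9%, and with 5 to 9 peaks 92.9% (66.1 to 99.8) and 94.6%. RefSeq-named units weighted to the peak numbers of the UCSC-only units would have 38%, beside the 39.9% observed.

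SRSF1 made up 51.8% of the UCSC-only peaks (47.2 to 56.4), and 47.2% of the peaks in RefSeq-named units (46.4 to 47.9). The gap depended on how units and peaks were taken. With each unit counted equally the means were 49.7% and 49.3%. Among peaks scored above the median of their list the shares were 53.9% (45.7 to 62.1) and 41.0%. Scores tie at that median, 8 in both lists, so this cut can keep unequal parts of the lists and move the shares. Single-peak units went the other way, with 32 of 72 carrying SRSF1 (44.4%, 32.7 to 56.6) against 53.2% of single-peak RefSeq-named units (48.6 to 57.7). With 2, 3 to 4 and 5 to 9 peaks per unit, the UCSC-only shares were 57.5%, 54.8% and 56.3%, against 50.7%, 49.7% and 46.5%. In the 5 UCSC-only units of 10 to 19 peaks, SRSF1 had 37 of 59 peaks (62.7%, 49.1 to 75), against 46.4% in RefSeq-named units. Of these 37 peaks, 10 came from uc009uxy.1. The 2 UCSC-only units of 20 or more peaks had a lower share, 40.8% (31.0 to 51.2) against 46.8%. Without uc008toj.1, which had more SRSF2 peaks, the UCSC-only share was 53.9% (48.9 to 59.0). Peaks of 1 unit share its RNA, so the intervals are too narrow for a statement about units.

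Only units with at least 10 peaks were set singly against the common share. Of the 7 UCSC-only units of that size, 1 had an exact interval above the 47.5% of all peaks and 0 had one below, too few units for a rate. Among all 2943 genic units of that size (those the authors did not call nongenic), 2.92% lay above and 2.92% below, and among 530 RefSeq-named units 2.26% and 2.64%. The unit above was uc009uxy.1 (chromosome X, plus strand, 165758596 to 165768690), with 10 SRSF1 peaks and 1 SRSF2 peak, a share of 90.9% (58.7 to 99.8). Its scores were low, from 4 to 8 for SRSF1 and 5 for the only SRSF2 peak, which lay on an SRSF1 peak of score 4. Next came uc007xdi.1 (chromosome 15, plus strand, 85491029 to 85498065) and uc008hea.1, each with 6 and 4 peaks (60%, 26.2 to 87.8). At the other end stood uc008toj.1 with 31 SRSF1 and 45 SRSF2 peaks (40.8%, 29.6 to 52.7), and uc007pff.1 with 9 and 13 (40.9%, 20.7 to 63.6). The intervals of these last units included 47.5%.

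**Figure D2:**
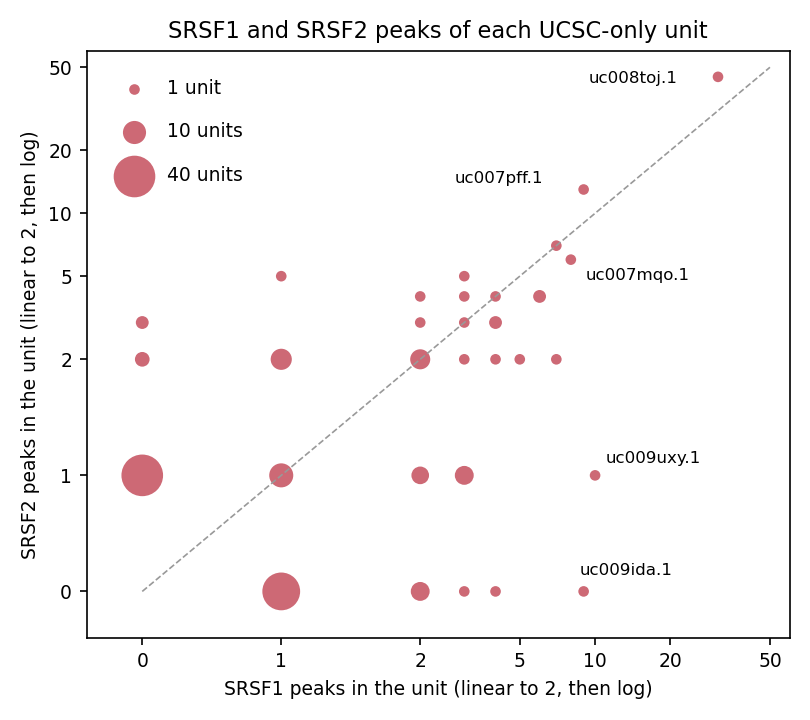
Number of SRSF1 peaks (x axis) and SRSF2 peaks (y axis) in each of the 143 UCSC-only units, both axes linear up to 2 and logarithmic above; the area of a point grows with the number of units at that position, and the dashed line marks equal numbers. Most units sit at 1 peak of 1 protein, uc008toj.1 stands alone at 31 and 45, and uc009uxy.1 at 10 and 1.

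Of the 51 UCSC-only units with 3 or more peaks, 5 had peaks of 1 protein alone, 3 of SRSF1 and 2 of SRSF2. Both proteins were found in 90.2% of the 51 units (78.6 to 96.7). Among the 1366 RefSeq-named units of that size the share was 92.1%, inside that interval. In uc009ida.1 (chromosome 7, plus strand, 89723243 to 89761283), 9 SRSF1 peaks with scores of 6 to 12 were spread over 38 kb, and no SRSF2 peak was listed. The nearest UCSC-only unit on the same strand, uc009icz.1 (89576884 to 89614262), lay 108981 nt away and had 3 SRSF1 and 4 SRSF2 peaks. A numbered cluster lay closer to uc009ida.1, 36.8 kb downstream, with 5 SRSF1 and 6 SRSF2 peaks. The unit uc007afv.1 (chromosome 1, plus strand, 6349564 to 6383794) had 4 SRSF1 peaks with scores of 4 to 6. In uc007law.1 (chromosome 11, plus strand, 95720985 to 95721161), 3 SRSF1 peaks with scores of 10, 20 and 8 lay within 177 nt. Level with it at 3 peaks were the SRSF2 units uc009cfd.1 (chromosome 6) and uc008aoy.1 (chromosome 17, plus strand, 17088585 to 17109558), with scores of 4 to 5. A list without a peak is not a count of 0 reads, because the read depth and the threshold of the lists were not given.

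The scores of SRSF2 peaks were somewhat lower in UCSC-only than in RefSeq-named units, while those of SRSF1 peaks differed less. The score is the authors' own value for each peak, a whole number of at least 4 whose meaning was not given in the sources used here, and it is used to rank peaks within a list. SRSF1 peaks had a median of 7 in both sets, with quartiles of 5 and 10 in UCSC-only and 6 and 10 in RefSeq-named units. SRSF2 peaks had a median of 7 (quartiles 5 and 9) against 8 (6 and 11). In the highest of 5 score classes, set on each whole list, fell 34 of the 243 SRSF1 peaks (14%, 9.89 to 19; RefSeq-named 17.9%) and 21 of the 226 SRSF2 peaks (9.29%, 5.84 to 13.9; RefSeq-named 15.7%). The SRSF2 interval lay below the RefSeq-named value and the SRSF1 interval included it. Without uc008toj.1 the SRSF1 median was 6 and the SRSF2 median stayed at 7. The shares in the highest class were then 12.3% (8.17 to 17.5) for SRSF1 and 10.5% (6.44 to 15.9) for SRSF2. In that case the SRSF1 interval lay below the RefSeq-named value and the SRSF2 interval included it. Among peaks of both proteins scored above the median of their list, 36.2% (28.6 to 44.4) fell in that class and 38.7% in RefSeq-named units, which lies inside that interval. Single-peak units had a median score of 5, against 6 for those with a RefSeq name. Peak widths had medians of 19 nt for SRSF1 and 20 nt for SRSF2, beside 19 nt for both in RefSeq-named units. Peak numbers missing from the listed sequence made up 12.3% (8.65 to 16.7) for SRSF1 and 15.4% (11.3 to 20.2) for SRSF2, against 16.3% and 19.5%. Both intervals included the RefSeq-named values. Only numbers below a unit's highest listed one can be counted as missing. Single-peak units, which were commoner in the UCSC-only set, therefore tend to add none.

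Whether UCSC-only peaks met the other protein less or more often than RefSeq-named ones depended on what was held equal. An SRSF2 peak shared at least 1 nt on the same strand with 74 of the 243 SRSF1 peaks (30.5%, 24.7 to 36.7), and an SRSF1 peak with 70 of the 226 SRSF2 peaks (31.0%, 25 to 37.4). In RefSeq-named units the shares were 37.2% (36.2 to 38.3) and 33.5% (32.5 to 34.5), the former above the UCSC-only interval and the latter inside it. Weighted to the score classes of the UCSC-only peaks, the RefSeq-named shares would be 34.8% and 27.8%, the former above and the latter below the observed values but both inside the intervals. Weighted to the numbers of peaks per unit, they would be 25.8% and 24%, both below the observed values, with the SRSF2 value outside the interval. Without uc008toj.1, the UCSC-only shares were 28.8% (22.8 to 35.4) and 31.5% (24.8 to 38.8). The RefSeq-named ones weighted to the peak numbers of the remaining units were 22.3% and 19%, both below these intervals, the first narrowly. The share rose with score in the UCSC-only peaks too, from 17.6% of SRSF1 peaks with scores of 4 to 5 (9.70 to 28.2) to 52.9% of those at 12 or more (35.1 to 70.2). For SRSF2 it went from 17.3% at scores of 4 to 6 (10.6 to 26.0) to 76.2% at 14 or more (52.8 to 91.8). In units that carried both proteins, 40.4% of SRSF1 peaks (33.3 to 47.9) and 40.2% of SRSF2 peaks (32.9 to 47.9) were overlapped, beside 40.1% and 35.9% in RefSeq-named units. With both lists cut to peaks scored above their median, partners included, the SRSF2 share was 37.1% (25.9 to 49.5) and the RefSeq-named one 33.2%. The sign of the SRSF2 difference was thus not stable. For SRSF1 the shares after this cut were 35.4% (25.1 to 46.7) and 47.2%. The RefSeq-named SRSF1 value again lay above the interval.

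**Figure D3:**
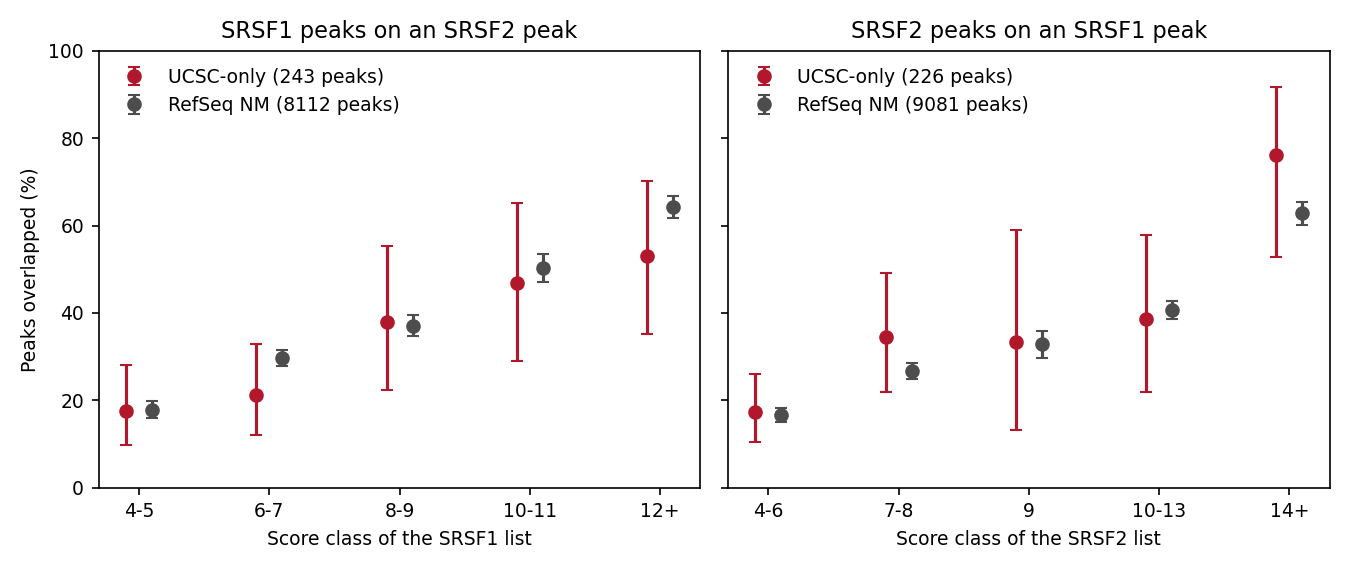
Share of SRSF1 peaks (left) and SRSF2 peaks (right) overlapped by a peak of the other protein (%), by score class of the list, for UCSC-only and RefSeq NM units, with exact 95% binomial intervals. Shares rise with score in both sets, from 17.6% to 52.9% for UCSC-only SRSF1 peaks and from 17.3% to 76.2% for SRSF2 peaks, and the intervals of the sets overlap in each class.

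Among small units, UCSC-only peaks overlapped more often than RefSeq-named ones, and more of the units had short spans. In units of 2 to 4 peaks, 28 of 80 SRSF1 peaks (35.0%, 24.7 to 46.5) and 28 of 64 SRSF2 peaks (43.8%, 31.4 to 56.7) were overlapped, against 18.0% (15.6 to 20.6) and 17.9% (15.5 to 20.5). Of the 50 UCSC-only units of this size, 22 had all their peaks within 200 nt, while 111 of 683 RefSeq-named units did. Within such compact units the SRSF1 shares were 52.9% (35.1 to 70.2) in UCSC-only and 56.6% (47.0 to 65.9) in RefSeq-named units. The SRSF2 shares there were 78.3% (56.3 to 92.5) and 46.7% (38 to 55.4). In units of 2 to 4 peaks that spanned more than 200 nt, the UCSC-only shares were 21.7% (10.9 to 36.4) and 24.4% (12.4 to 40.3), against 12.8% (10.7 to 15.3) and 13.2% (11.0 to 15.7). A span runs from the first to the last peak, so a unit of 2 overlapping peaks is short because its peaks overlap. Of the 22 compact UCSC-only units, 13 had 2 peaks, so the link between overlap and short span is partly built in. The limit of 200 nt and the pooling of 2 to 4 peaks were chosen after the values were seen, and no test was run. Over all units with 2 or more peaks, 22 of 71 UCSC-only units (31.0%, 20.5 to 43.1) were this compact and 114 of 1673 RefSeq-named ones (6.81%, 5.65 to 8.13).

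The 3 strongest shared sites lay in such compact units. There were 76 overlapping pairs in 42 units, and 63 of them (82.9%) had midpoints within 10 nt of each other. Overlapping peaks with median widths of 19 and 20 nt have close midpoints, so that share is largely built in. The pair with the highest smaller score was the whole of uc007bkh.1 (chromosome 1, plus strand), an SRSF1 peak from 72301635 to 72301675 with score 34 and an SRSF2 peak from 72301634 to 72301671 with score 37. The SRSF1 score was the highest of any UCSC-only peak in its list. The highest SRSF2 score, 59, was in uc007zbz.1 (chromosome 16, minus strand, 35981749 to 35981843). There the SRSF2 peak from 35981802 to 35981843 enclosed an SRSF1 peak from 35981803 to 35981842 with score 30, and a weaker pair with scores of 4 for SRSF1 and 5 for SRSF2 lay beside it. In uc008ejv.1 (chromosome 18, plus strand, 33954842 to 33954947), all 4 peaks overlapped in pairs, with scores of 12 and 20 for SRSF1 and 15 and 27 for SRSF2. The next pairs were in longer units, uc007mqo.1 with scores of 19 for both proteins and uc008toj.1 with 18 for both. Across the 76 pairs the scores had a Spearman rho of 0.627, given as a description, since pairs of 1 unit share its RNA level and 13 of the pairs came from uc008toj.1.

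The largest unit, uc008toj.1, ran along the plus strand of chromosome 4 from 88941370 to 89180732 (239 kb between first and last peak). Its peaks were crowded at the 5′ end. In the first 15.1 kb, up to 88956453, lay 59 of its 76 peaks (77.6%), 23 of SRSF1 and 36 of SRSF2, or 3.91 peaks per kb. After a gap of 78.0 kb, 17 peaks followed over 146 kb, 8 of SRSF1 and 9 of SRSF2, or 0.116 per kb. The widest gap was used to divide the unit after the peaks were seen. SRSF1 had 39.0% of the peaks in the dense stretch (26.5 to 52.6) and 47.1% in the sparse one (23.0 to 72.2), intervals that overlap widely. The highest scores of both proteins were in the dense stretch, 21 for SRSF1 (88942460 to 88942531) and 18 for SRSF2 (88942536 to 88942579), next to each other. In the dense stretch 8 of 23 SRSF1 peaks and 8 of 36 SRSF2 peaks overlapped the other protein, and in the sparse one 5 of 8 and 5 of 9. Directly upstream, 287 nt before the first peak, ended a region that the authors called nongenic, with 5 SRSF1 and 6 SRSF2 peaks. On the opposite strand a cluster with a single SRSF1 peak lay inside the span (88956775 to 88956796). The nearest RefSeq-named unit on the same strand was Lurap1l, 8.34 Mb away.

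**Figure D4:**
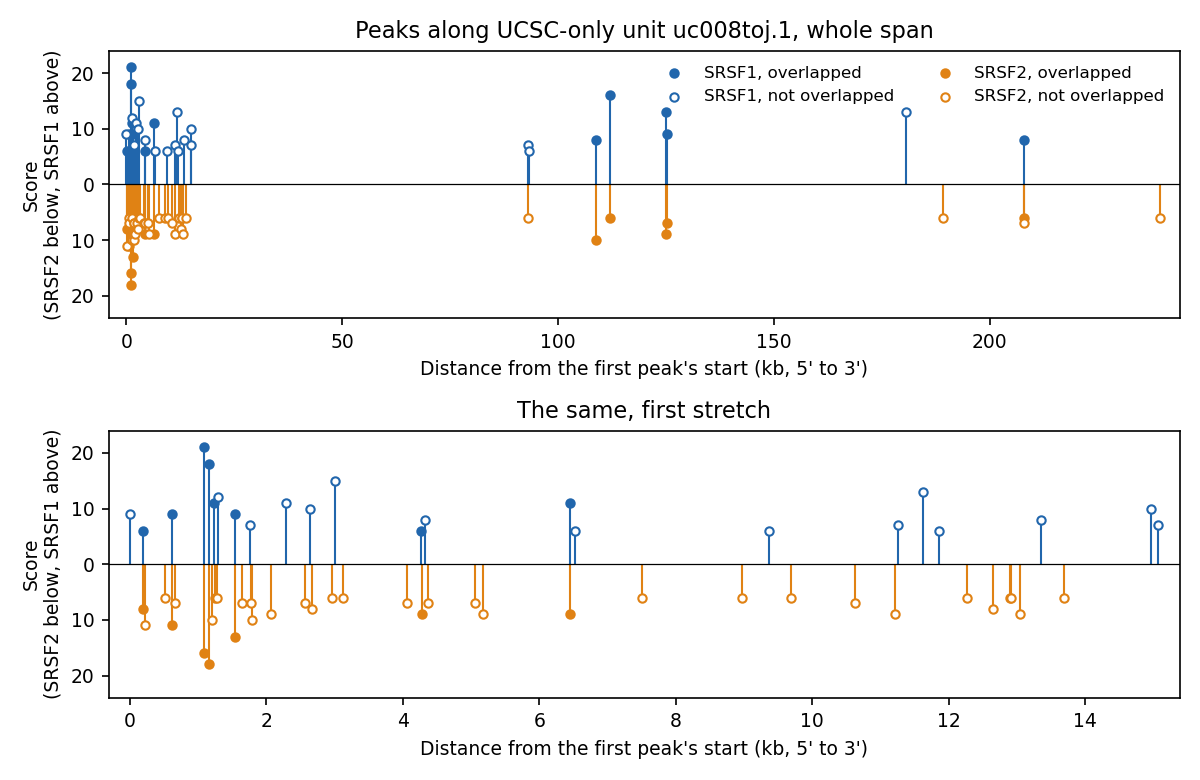
Peaks of unit uc008toj.1 by distance from the start of its first peak (kb), with the score of each peak as the length of its line, SRSF1 above and SRSF2 below the axis; filled points overlap a peak of the other protein. The upper panel shows the whole span and the lower panel the first 15.1 kb, where 59 of the 76 peaks lie.

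The next units by number of peaks were much shorter. In uc007pff.1 (chromosome 12, minus strand, 114023239 to 114033964), 9 SRSF1 peaks scored 6 to 11 and 13 SRSF2 peaks scored 6 to 22, and 6 and 5 of them overlapped. Its highest SRSF2 peak, 114023769 to 114023803, coincided with an SRSF1 peak of score 10 at 114023770 to 114023802. In uc007mqo.1 (chromosome 11, plus strand, 119287376 to 119291614), 6 of 8 SRSF1 peaks and 5 of 6 SRSF2 peaks overlapped, with scores of 11 to 27 and 12 to 22. Its lowest scores, 11 and 12, lay above the median of 8 of each whole list. The unit uc008zir.1 (chromosome 5, plus strand, 121736852 to 121754383) had 7 peaks of each protein, of which 2 of each overlapped.

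The remaining units with most peaks had at most 2 overlapped peaks of each protein. The unit uc007xdi.1 had 2 overlapped peaks of each protein, and uc008hea.1 (chromosome 19, minus strand, 29828477 to 29879246) had 6 SRSF1 and 4 SRSF2 peaks with scores of 4 to 6, of which 1 each overlapped. The unit uc007dbe.1 (chromosome 1, minus strand, 157060623 to 157073549) had 7 SRSF1 and 2 SRSF2 peaks and no overlap. In uc007yfc.1 (chromosome 16, plus strand, 11203622 to 11206552), 4 peaks of each protein scored 6 to 9 and 1 of each overlapped. It lay 4.05 kb from Rsl1d1, the gene of a ribosome-related nucleolar protein, which is on the opposite strand and had 3 SRSF1 and 10 SRSF2 peaks.

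Several of the units with most peaks adjoined regions that the authors had called nongenic. Of the 7 UCSC-only units with at least 10 peaks, 5 had a same-strand nongenic region within 1 kb (71.4%, 29.0 to 96.3), against 75 of 530 RefSeq-named units of that size (14.2%, 11.3 to 17.4). In units of 2 to 9 peaks the shares were 7.81% (2.59 to 17.3) and 5.51% (4.26 to 7.0), and over all units 8.39% (4.41 to 14.2) and 6.98% (5.94 to 8.14). The limit of 1 kb was chosen after the values were seen. The nongenic region before uc007mqo.1 ran from 119254415 to 119287375, next to its first peak, with 39 SRSF1 and 42 SRSF2 peaks, more than the unit itself. That before uc008zir.1 (121670547 to 121736461) had 10 and 20 peaks and ended 391 nt upstream. The nongenic region beside uc007pff.1 began 87 nt downstream and had 3 and 6 peaks, and that beside uc008hea.1 began 283 nt downstream and had 5 and 2. Beside uc009ida.1, which had no SRSF2 peak, the nongenic region 934 nt upstream had 12 SRSF1 and 6 SRSF2 peaks.

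Apart from the nongenic regions, intervals for the distance to other units mostly included the RefSeq-named values, and overlap with a unit of the opposite strand was the exception. The units lay on 20 chromosomes, from 14 units on chromosome 5 to 2 on chromosome 13, and 78 of 143 (54.5%, 46.0 to 62.9) were on the plus strand. The span overlapped another genic unit on the same strand in 0 UCSC-only and 0 RefSeq-named units. Another genic unit lay within 10 kb on the same strand of 15 units (10.5%, 5.99 to 16.7), against 12.4% of RefSeq-named units, and on the opposite strand of 32 (22.4%, 15.8 to 30.1), against 22.3%. The span met a genic unit of the opposite strand in 6 UCSC-only units (4.20%, 1.56 to 8.91) and in 16 RefSeq-named ones (0.745%, 0.426 to 1.21). Of the 469 UCSC-only peaks, 0 met a listed peak on the opposite strand, while 6 of the 17193 RefSeq-named peaks did (0.0349%, 0.0128 to 0.0759). The interval for 0 of 469 reaches 0.783% and so includes the RefSeq-named share.

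Neighbours with a gene symbol were mostly far away. Among the units named by rule, the nearest RefSeq-named unit on the same strand lay from 62.3 kb (Fam162a, from uc007zbz.1) to 9.71 Mb away (Rdh10, from uc007afv.1). For the other units it was Jag2 for uc007pff.1, Cbx2 for uc007mqo.1, Ddx54 for uc008zir.1, Trappc2 for uc009uxy.1, Atxn10 for uc007xdi.1, Plgrkt for uc008hea.1, Lamc1 for uc007dbe.1, Stard5 for uc009ida.1, Rrn3 for uc007yfc.1, Phb for uc007law.1, Creb1 for uc007bkh.1 and Egr1 for uc008ejv.1. Closer pairs were picked out after their values were seen. The unit uc008onz.1 (chromosome 3, minus strand, 5215519 to 5220694) ran opposite to the first peaks of Zfhx4, a zinc finger homeobox transcription factor with 68 SRSF1 and 76 SRSF2 peaks on the plus strand. It had 3 SRSF1 peaks, each with a score of 5, and 2 SRSF2 peaks with scores of 6 and 4. The unit uc009cfd.1 (chromosome 6, plus strand, 66986835 to 67013530) overlapped the span of Gadd45a, a gene induced by growth arrest and DNA damage, on the opposite strand. It had 3 SRSF2 peaks, each with a score of 4, and no SRSF1 peak. The unit uc007kve.1 (chromosome 11, plus strand, 87873178 to 87880938) lay 6.66 kb downstream of the last peak of Srsf1, the gene of 1 of the proteins measured. It had 2 SRSF1 peaks with scores of 5 and 7 and 2 SRSF2 peaks with scores of 7 and 6, and the last of each overlapped.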

How the data were processed

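The deposited files hold 1 peak list per protein, giving position, host unit, score and strand of each peak. The score made by the authors takes whole values from 4 upwards, and no header or label gives its meaning. The build is mm9, per the submitters' processing notes. Aligner, peak caller, threshold and read depth: not given in the sources used here. Host units were read from peak names, and a unit's span runs from its first to its last peak in either list. Overlap meant at least 1 nt on the same strand, counted in Python 3.11.15 with pandas 2.3.3, and gave the same counts as bedtools 2.31.1. The overlap, merging and unit calls were also tested on simulated data. Shares carry exact (Clopper-Pearson) 95% intervals from scipy 1.17.1, which cover counting error only. The 5 score classes are quintiles of each whole list with tied scores kept together. Gene symbols of 2136 of the 2149 RefSeq-named units were found in RefSeq's GRCm38.p6 gene table, from which no coordinates were taken. The members, rules and comparisons were chosen with earlier results of these data known. Units were named by rule: the 10 with most peaks, the 2 highest and 2 lowest SRSF1 shares among units with at least 10 peaks, the 3 with most peaks of 1 protein only (ties in any of these by identifier), the 5 strongest overlapping pairs, 1 per unit, the highest score of each list, and each unit's nearest same-strand RefSeq-named unit. The units uc009icz.1, uc008aoy.1, uc008onz.1, uc009cfd.1 and uc007kve.1 and the gene Rsl1d1 were added after their values were seen.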

Additional observations from a re-analysis of the deposited data

How the results depend on the processing

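No paired analysis was possible because each protein has 1 library. Apart from leaving out a chromosome, 23 alternative values stayed within the interval of the main value, or for the mean number of peaks within 1.5 times it, and 9 moved. Another 8, for units that overlap another genic unit on the same strand and for partners in the same host unit, removed nothing and show nothing. With units of at least 3 peaks alone, the mean was 7 peaks per unit and 90.2% of units had both proteins, which follows from dropping single-peak units. Keeping only peaks scored above the list's median put 36.2% of them in the highest score class, also by construction, against 11.7% of all UCSC-only peaks (RefSeq-named 38.7% and 16.7%). Counting midpoints within 50 nt gave 37.4% of SRSF1 and 40.3% of SRSF2 peaks with a partner (RefSeq-named 47.3% and 44.1%). Setting every peak to 50 nt gave 37.4% and 39.8% (RefSeq-named 47.2% and 43.9%). Both RefSeq-named SRSF1 values lay above the UCSC-only interval of 31.3 to 43.9, and both SRSF2 values lay inside theirs. Cutting the longer SRSF2 list to the length of the SRSF1 list by score raised the SRSF1 share to 57.4%, since the peaks removed are low-scoring SRSF2 peaks, and that of RefSeq-named units to 49.4%. Another same-strand genic unit lay within 50 kb of 41.3% of units. Leaving out each of 20 chromosomes gave 2.80 (without chromosome 4, which holds uc008toj.1) to 3.41 peaks per unit, 38.3% to 41.2% of units with both proteins, an SRSF1 share of 50.6% to 53.5%, overlap of 28.9% to 31.8% for SRSF1 and 29.6% to 32.2% for SRSF2, and 9.59% to 12.6% of peaks in the highest score class. Depth was not given, so a protein missing from a unit cannot be set against a detection limit.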
